A study of Drosophila melanogaster with 10 samples.

Results

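Pericentromeric heterochromatin is the part of a chromosome arm next to the centromere. It is rich in satellite repeats and transposon remnants, and in Drosophila its nucleosomes carry methylation of histone H3 that is bound by HP1a, a protein that compacts chromatin. Reporter genes placed there are often silenced, yet the sequenced part holds resident genes, some of them essential, and several of these are known to need their heterochromatic setting for normal expression. The regions described here are the pericentromeric ends of 4 chromosome arms, and the measurement is the position and strength of open chromatin in them.

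The members were chosen by position only. They are the ATAC-seq summits of S2 cells at or above position 22000000 of 2L, at or above 22900000 of 3L, at or below 4500000 of 3R, and at or above 22400000 of X, in the dm6 assembly. ATAC-seq uses the transposase Tn5 to cut accessible DNA, and a summit marks a local maximum of the cut signal in a called peak. The regions held 801 of the 39806 summits of the list (2.01%), with 226 on 2L, 249 on 3L, 201 on 3R, and 125 on X. They came from 370 peaks. The rest of the same 4 arms, used for comparison, held 30126 summits in 11861 peaks.

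S2 is an established Drosophila cell line derived from embryos. The 10 libraries behind the list were from S2 cells kept for 5 days with double-stranded RNA at 10 µg/ml, in 5 groups of 2: NURF301+BAP170 RNAi, NURF301 RNAi, BAP170 RNAi, GAF RNAi, and LacZ RNAi, the control. NURF301 and BAP170 are subunits of the chromatin remodelers NURF and PBAP, and GAF is a transcription factor that binds GA-rich repeats. All libraries were pooled into 1 list, so no condition or replicate could be compared, the depth of each library is unknown, and each comparison below is a description without a test, with 95% intervals that cover counting error only. The score of a summit is its q value from the peak caller, as −log10. It ran from 1.30 to 80130 with a median of 21.9 over the whole list. More reads or more copies of a sequence raise it, as does accessibility.

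Whether the regions are heterochromatic was checked only through gene density, since chromatin marks were not analysed here. The regions had 181 protein-coding genes, or 14.7 per Mb, against 114 per Mb in the rest of the arms. On 3L the density was 8.09 per Mb in the region and 118 per Mb in the rest, on 3R 14.3 and 121, on 2L 24.4 and 119, and on X 33.4 and 96.4. The exception was the first 0.5 Mb inside the border of 3R. It had 112 protein-coding genes per Mb, close to the 121 per Mb of the rest of 3R, so by gene density this stretch goes against the name heterochromatin.

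Summits were sparse in the regions. They made up 2.59% of the 30927 summits of the 4 arms on 11.5% of the length, with 65.0 summits per Mb in the regions and 318 per Mb in the rest, a ratio of 0.204 (95% interval 0.190 to 0.219). Peaks were also sparse, at 30.0 per Mb in the regions and 125 per Mb in the rest. Lengths here and below are coordinate lengths, without allowance for assembly gaps or for repeats where reads may not map. Whether these lower the density of the regions was not tested. The 4 arms fell into 2 pairs. On 3L the density was 48.0 summits per Mb in the region and 367 in the rest (ratio 0.131), and on 3R it was 44.8 and 343 (ratio 0.130). On 2L it was 149 and 341 (ratio 0.438), and on X it was 110 and 212 (ratio 0.517). Thus the 2 long regions, of 5.19 Mb on 3L and 4.49 Mb on 3R, were the sparsest, and the short ones, of 1.51 Mb on 2L and 1.14 Mb on X, kept more of the density of their arm.

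Summits were less sparse than genes. There were 4.43 summits per protein-coding gene in the regions and 2.79 in the rest. This ratio was higher in the region than in the rest on each arm, at 6.11 and 2.86 on 2L, 5.93 and 3.12 on 3L, 3.14 and 2.84 on 3R, and 3.29 and 2.20 on X. On 3R it was not higher throughout the region. The ratio was 2.23 within 0.5 Mb of the border and 2.40 from 0.5 to 1 Mb, both below the rest. Beyond 1 Mb on 3R there were 64 summits and 3 protein-coding genes.

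Within the regions, summits were clustered. In windows of 100 kb counted from the border, 55 of 121 region windows had no summit (45.5%, Wilson interval 36.9 to 54.3%), against 48 of 945 windows of the rest (5.08%, 3.85 to 6.67%). The median window held 1 summit in the regions and 25 in the rest. In the regions 10 windows, 8.26% of them, were enough to hold 50% of the summits, whereas 195 windows (20.6%) were needed in the rest. Of the 64 region windows without a protein-coding gene midpoint 41 were empty, and of the 57 with one 14 were empty. Windows with at least 1 summit were therefore more frequent where there were gene midpoints, but not each window with a midpoint had a summit. A window without a midpoint can still lie inside a long gene. On 3R, 1 such window inside Myo81F held 16 summits.

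**Figure D1:**
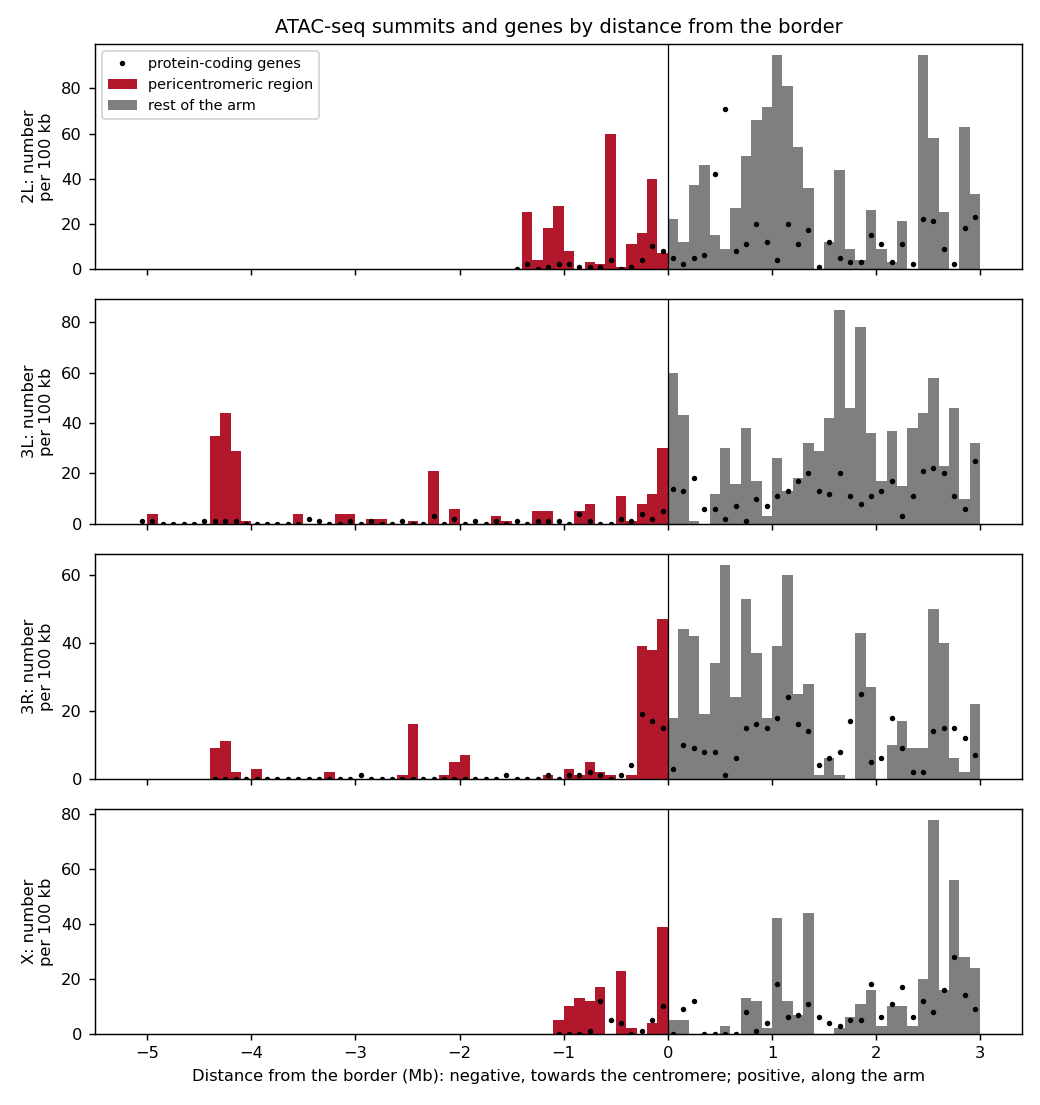
Number of ATAC-seq summits (bars) and of protein-coding genes placed by midpoint (dots) in windows of 100 kb, by distance from the border in Mb, for the pericentromeric region (red, negative distances) and the first 3 Mb of the rest of each arm (gray, positive distances). The red bars are sparse and clustered: 55 of the 121 region windows hold no summit, and the fullest holds 60.

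The fullest window lay 0.5 to 0.6 Mb inside 2L, with 60 summits around RpL5, which encodes a protein of the large ribosomal subunit, CG17490, CG17493, and Slmap. A second cluster far from a border was on 3L, where 3 adjoining windows between 4.1 and 4.4 Mb held 29, 44, and 35 summits. Each of these 3 windows had 1 protein-coding gene by its midpoint, which was CG40228, vtd, and RpL15. The window of RpL15 also held the start coordinate of Dbp80, 27279316, and the 14 summits inside that gene, whose midpoint lies in another window. By contrast, the 3 windows next to the border of 3R, with 47, 38, and 39 summits, had 15, 17, and 19 protein-coding genes by midpoint. Thus similar numbers of summits were found with very different numbers of gene midpoints.

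Long stretches of the regions had no summit at all, which does not show that they were closed. The longest ran over 865681 bp of 3R, between summits at 2518955 and 3384636, and took in the whole of Pzl, a relative of the Piezo mechanosensitive channels, and of spok, which encodes a cytochrome P450 of ecdysone synthesis. On 3L the longest was 563441 bp and contained the gene body of eIF4B, a translation initiation factor, but the summit that ended it was 30 bp from eIF4B and had a score of 104. A second one of 526115 bp contained no annotated gene. On 2L and X the longest were 184079 and 172412 bp. The longest stretch without a summit in the rest of the arms was 419729 bp.

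The decline in density away from the border differed between arms. Over all 4 regions, density was 165 summits per Mb within 0.5 Mb of the border, 75 per Mb from 0.5 to 1 Mb, and 38.5 per Mb beyond 1 Mb. Protein-coding genes, placed by midpoint, numbered 56.5, 18.5, and 3.72 per Mb. On 2L there was no decline, with 150, 146, and 152 summits per Mb. On 3R the first 0.5 Mb, the stretch with a gene density like that of the rest of the arm, held 125 of the 201 summits (62.2%) at 250 per Mb, followed by 24.0 and 18.3 per Mb. On 3L the values were 124, 26.0, and 41.5 per Mb, and on X they were 136, 104, and 36.2 per Mb. The last X value rests on 5 summits in 0.138 Mb.

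Despite the low density, a protein-coding gene of the regions had a summit close to one of its ends about as often as a gene elsewhere. A gene was called reached if at least 1 summit was no more than 500 bp from one of its ends, since strand was not given and start and end could not be told apart. In the regions 106 of 181 protein-coding genes were reached (58.6%, 51.3 to 65.5%), and the background share in the rest of the arms was 59.7% (6454 of 10808 genes, 58.8 to 60.6%). The difference was −1.15 percentage points (−8.43 to 5.77). Here and below, the interval of a difference is that of the region's value, with the value of the rest held fixed. It was 0.94 points with a distance of 250 bp and 2.75 points when gene bodies were included, so its sign was not settled. By arm the share was 54.1% in the region and 58.9% in the rest for 2L, 57.1% and 61.2% for 3L, 62.5% and 62.3% for 3R, and 57.9% and 54.8% for X. On each arm the interval of the region's share contained the value of the rest. Most 3R genes, 56 of 64, and 35 of the 40 reached ones lay within 0.5 Mb of the border. That stretch had a gene density like that of the rest of 3R. With borders moved 0.5 Mb towards the centromere the region's share was 58.8%. Without 3R the shares were 56.4% in the regions and 58.6% in the rest. The share also held up far from the border, at 66 of 113 genes (58.4%) within 0.5 Mb, 23 of 37 (62.2%) from 0.5 to 1 Mb, and 17 of 31 (54.8%, 37.8 to 70.8%) beyond 1 Mb. Beyond 1 Mb on 3R, 0 of 3 genes were reached. Counted over all annotated genes, noncoding ones included, the share was 46.8% in the regions and 54.2% in the rest, a difference of −7.43 points (−13.1 to −1.71).

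**Figure D2:**
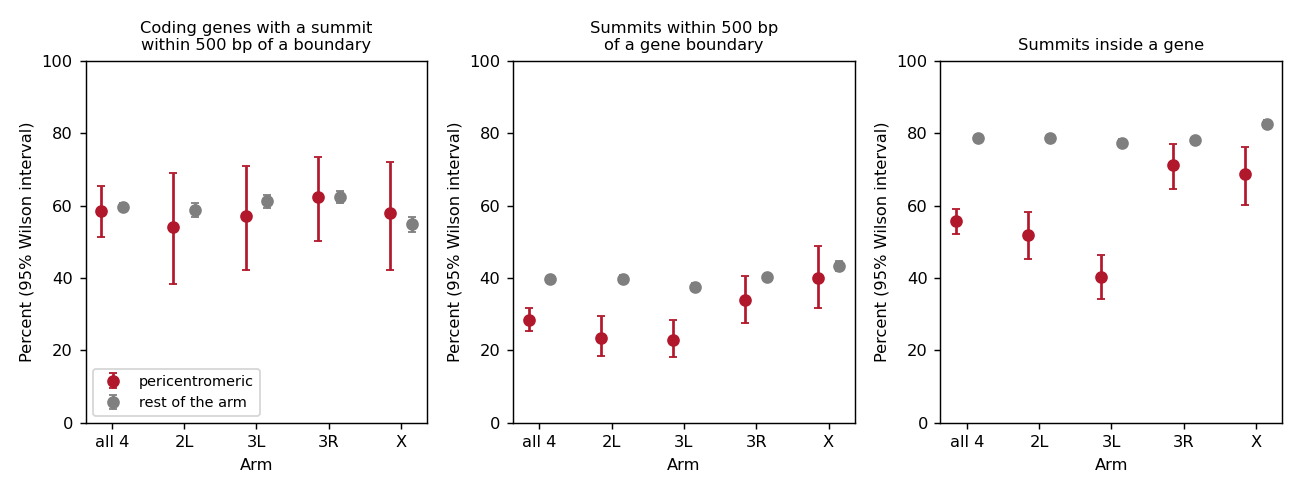
Percent of protein-coding genes that were reached (left), of summits within 500 bp of a gene boundary (center), and of summits inside a gene (right), for the pericentromeric region (red) and the rest (gray) of each arm and of all 4, with 95% Wilson intervals. The shares of genes overlap (58.6% and 59.7% over all 4), whereas fewer region summits lie near a boundary (28.5% and 39.8%) or inside a gene (55.7% and 78.7%).

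Seen from the summits, the picture was different, but gene boundaries were also sparser in the regions. Annotated genes numbered 23.8 per Mb in the regions and 144 per Mb in the rest, and the shares below were not adjusted for this. In the regions 228 summits lay within 500 bp of the boundary of any annotated gene (28.5%, 25.4 to 31.7%), against 12004 in the rest (39.8%, 39.3 to 40.4%). The median distance to the nearest boundary was 1560 bp in the regions and 882 bp in the rest. More than 10 kb from any boundary were 180 summits of the regions (22.5%, 19.7 to 25.5%) and 2775 of the rest (9.21%, 8.89 to 9.54%). Of those 180 summits, 57 lay inside a gene and 32 of these inside Myo81F, a myosin gene. Inside any gene lay 446 summits of the regions (55.7%, 52.2 to 59.1%) and 23715 of the rest (78.7%, 78.3 to 79.2%). With each border moved 0.5 Mb towards the centromere, the share near a boundary was 19.5% in the regions, which made the difference −20.3 points in place of −11.4.

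The arms differed here too. Near a boundary were 23.5% of region summits and 39.7% of the others on 2L, 22.9% and 37.6% on 3L, 33.8% and 40.2% on 3R, and 40% and 43.2% on X. The intervals of region and rest were apart on 2L and 3L. On X they overlapped, and on 3R the interval of the difference reached just past 0 (−12.6 to 0.405 points).

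**Figure D3:**
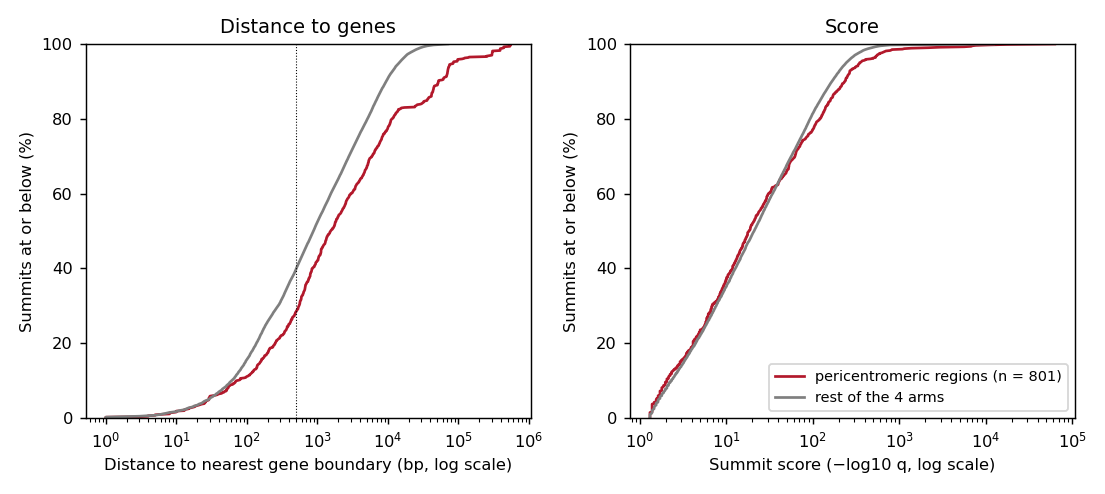
Cumulative percent of summits by distance to the nearest gene boundary in bp (left) and by score in −log10 q (right), both on log axes, for the 801 summits of the pericentromeric regions (red) and the summits of the rest of the 4 arms (gray). The dotted line marks 500 bp. The distance curve of the regions lies to the right, with medians of 1560 and 882 bp, and the score curves cross.

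The median score was 18.3 in the regions (15.6 to 21.8) and 20.9 in the rest (20.3 to 21.4), a difference of −2.67 (−5.35 to 0.917). The quartiles were 5.76 and 84.2 in the regions, and 5.87 and 72.9 in the rest. At or above the median of the whole list were 372 summits of the regions (46.4%, 43.0 to 49.9%) and 14810 of the rest (49.2%, 48.6 to 49.7%). The difference depended on which summits and arms were counted. When each peak was represented by its strongest summit the difference was −9.83, and when summits below the list median were dropped it was 24.1, from medians of 98.5 in the regions and 74.4 in the rest (interval of the difference 4.56 to 37.5). It was −4.60 (−7.99 to −0.18) with borders moved 0.5 Mb towards the centromere and −3.88 (−6.49 to −0.61) without 3R. Region medians ran from 13.3 on 3L and 15.9 on 2L to 19.4 on X and 30.6 on 3R, against 19.6, 21.9, 18.0, and 23.7 in the rest of the same arms.

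Over all 4 arms, scores near gene boundaries were higher in the regions, and those away from boundaries were close. Summits within 500 bp of a gene boundary had a median score of 66.9 in the regions (54.3 to 103, n = 228) and 43.5 in the rest (41.7 to 45.4). Summits away from boundaries had medians of 13.1 in the regions (10.7 to 15.5, n = 573) and 13.6 in the rest (13.1 to 14.1). X did not share the first difference, with near-boundary medians of 22.5 in the region and 23.4 in the rest, against 136 and 51.6 on 2L, 99.6 and 45.1 on 3L, and 113 and 57.8 on 3R. Away from boundaries the arms went both ways, at 12.6 in the region and 12.7 in the rest on 2L, 8.48 and 12.7 on 3L, 19.8 and 14.5 on 3R, and 17.6 and 14.6 on X.

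Among reached protein-coding genes the highest score within 500 bp of a boundary had a median of 164 in the regions (131 to 206) and 93.6 in the rest (90.7 to 97.5). By arm these medians were 268 and 113 on 2L, 244 and 114 on 3L, 163 and 113 on 3R, and 81.4 and 35.0 on X. The interval of the region's median lay above the value of the rest on 2L (160 to 334) and 3L (138 to 368), but contained it on 3R (107 to 195) and X (15.3 to 131). Of the 106 reached genes, 75 (70.8%, 61.5 to 78.6%) were above the median of the rest.

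Genes of the regions shared their summits less, although annotated genes were also sparser there (23.8 per Mb, and 144 in the rest), which was not adjusted for. The highest summit of 38 of the 106 reached genes (35.8%, 27.4 to 45.3%) was also within 500 bp of another annotated gene, against 4496 of 6454 genes in the rest (69.7%, 68.5 to 70.8%). Peaks had fewer summits as well, at 2.16 per peak in the regions and 2.54 in the rest (ratio 0.852, 0.794 to 0.914). By arm the ratio was 0.817 on 2L, 0.851 on 3L, 0.849 on 3R, and 0.941 on X, where the interval (0.781 to 1.12) contained 1. More than 1 summit was found in 196 region peaks (53.0%, 47.9 to 58.0%) and in 6777 peaks of the rest (57.1%, 56.2 to 58.0%). On X this share was higher in the region, at 61.1% (47.8 to 73.0%) and 55.9% in the rest.

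**Figure D4:**
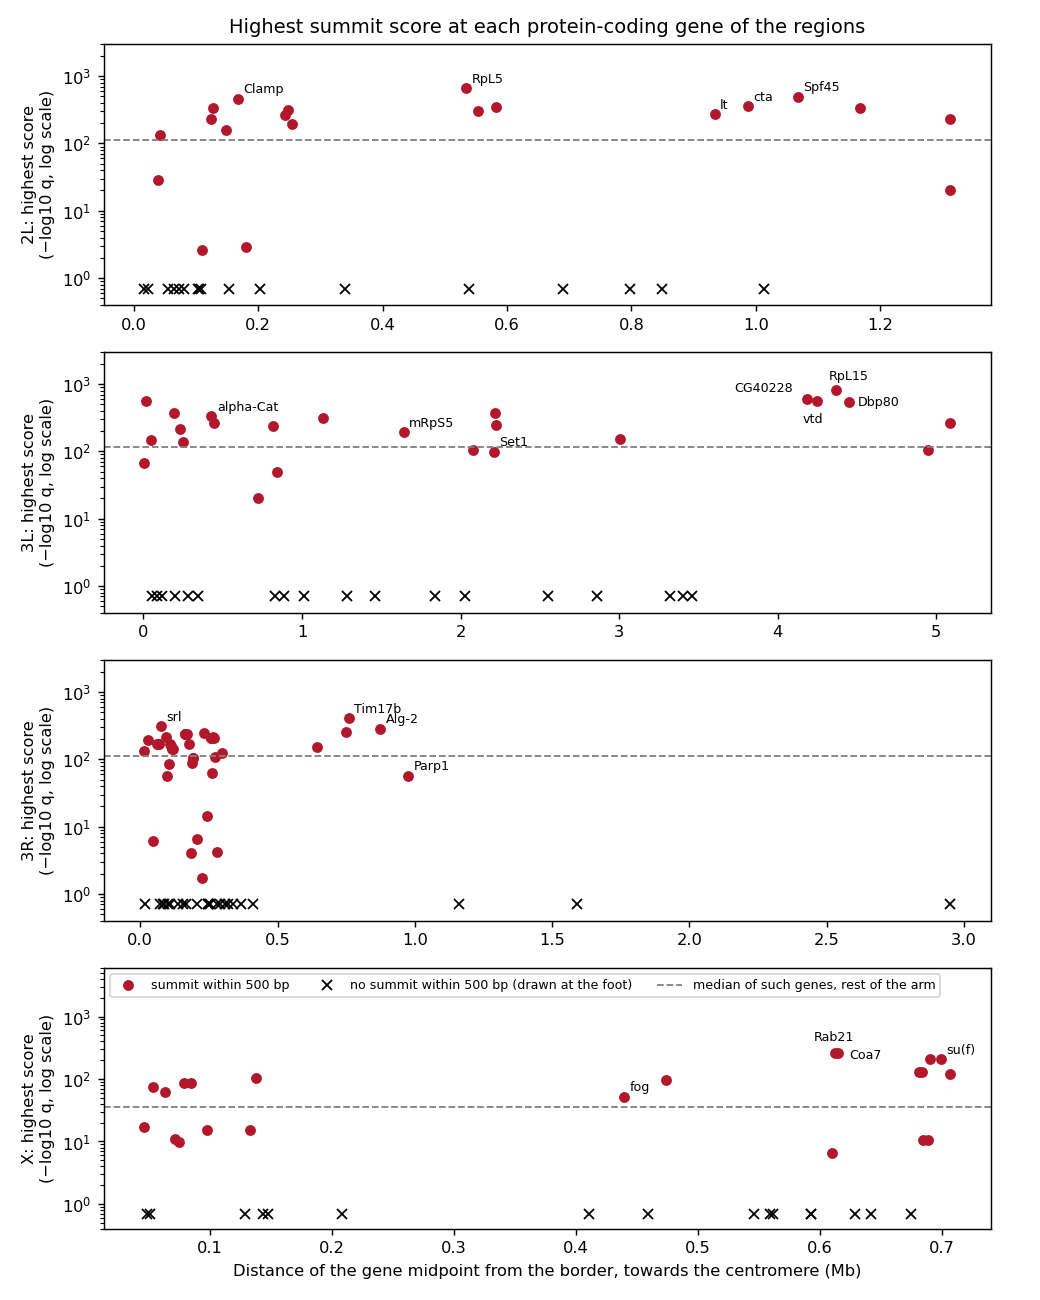
Highest summit score within 500 bp of a boundary (−log10 q, log axis) of each protein-coding gene of the 4 regions, by distance of the gene midpoint from the border in Mb, with genes without such a summit drawn as crosses at the foot. Dashed lines mark the median of reached genes in the rest of each arm (113, 114, 113, and 35.0); 75 of the 106 reached genes exceed the median of all 4 arms, and high scores such as those of RpL15 and vtd are found more than 4 Mb from the border.

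RpL15 and RpL5 had the highest gene scores. RpL15, another gene of the large ribosomal subunit at 27267255 to 27268445 of 3L, had the highest score of any protein-coding gene of the regions, 806, from a summit at 27267206 just outside the gene. RpL5, at 22532279 to 22536884 of 2L, followed with 661 from a summit inside the gene, 125 bp from its end at the higher coordinate. CG40228, at 27082091 to 27083906 of 3L, had 592 from a summit 30 bp outside. The gene vtd, which encodes the cohesin subunit that closes the ring around sister chromatids, had 558, from a summit 38 bp outside the gene at 27136525 to 27157999 of 3L. Of these 4 summits, 3 lay just outside the gene body.

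The other genes among the 3 with the highest scores of each region were as follows. On 2L they were Spf45, which encodes a splicing factor, with a score of 497 at 4 bp from the boundary, and Clamp, a zinc finger protein that binds GA repeats and takes part in dosage compensation, with 458 at 120 bp. On 3R they were Tim17b, a subunit of the import channel of the inner mitochondrial membrane, with 405, srl, a coactivator for mitochondrial genes, with 308, and Alg-2, a calcium-binding protein, with 287. On X the summit at 23013417 lay between Rab21, a small GTPase of endosomes, and Coa7, an assembly factor of the respiratory chain, and gave both a score of 259. A summit at 23096566 gave 207 to both CG17162 and su(f), which encodes a subunit of the complex that cleaves the 3′ ends of mRNAs. The leading scores of X were thus lower than those of the other 3 regions and belonged to pairs of neighbors. Scores were also lower in the rest of X, where reached genes had a median best score of 35.0. In the rest of 2L, 3L, and 3R it was 113, 114, and 113.

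A list of 31 names taken to be classical heterochromatin genes was drawn up from general knowledge. Of these 26 lay in the regions, 2 of the 31 names (Parp and Parp1) were the same gene, and 4 mapped outside the regions. Haspin and IntS3 are on 2R, an arm not used here. SelG, at 11887284 of X, and Rpn5, at 5789493 of 3R, lie in the rest of their arms. Of the 26 genes, 13 were reached (50%, 32.1 to 67.9%), 4 had summits only inside the gene, and 9 had none, against the 58.6% of all region genes and 59.7% of the rest that were reached. The median best score of the 13 was 287.

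Besides RpL15, RpL5, vtd, Alg-2, and su(f), the reached genes of the list cover several roles. Dbp80, an RNA helicase of mRNA export, had a score of 536. The signaling gene cta, which encodes a G protein alpha subunit, had 359, and fog, the secreted ligand that acts upstream of it in gastrulation, had 52.2, the lowest of the 13. Cell adhesion was represented by alpha-Cat, the alpha-catenin of adherens junctions, with 335. The gene lt, which encodes a subunit of a complex that tethers vesicles to the lysosome and is the gene whose need for heterochromatin is best known, had 269. The mitochondrial ribosomal protein gene mRpS5 had 191. Set1, a methyltransferase of histone H3, had 99.6, and Parp1, a poly(ADP-ribose) polymerase, had 57.0. All but fog (52.2) and Parp1 (57.0) of the 13 were above the median of 93.6 of reached genes in the rest of the arms.

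The 9 genes of the list without any summit were Cht10, nvd, spok, Pzl, Gfat1, stnA, stnB, scro, and CG17715. Several have tissue-restricted roles: nvd and spok act in ecdysone synthesis, stnA and stnB, which share 1 annotated span, in synaptic vesicle recycling, scro is a homeobox gene, and Cht10 encodes a chitinase. Gfat1, an enzyme of the hexosamine pathway, is a metabolic gene in the same group. The 4 with summits only inside were Myo81F, Snap25, a SNARE protein gene of synaptic vesicle fusion, CkIIalpha, the catalytic subunit of casein kinase II, and CG40006. In CkIIalpha the inside summit had a score of 229, and in Snap25 the highest of 5 was 5.90. A listed gene without a summit was not called open at the depth of the pooled list, which does not show that it was closed.

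Protein-coding genes were longer in the regions, with a median length of 4107 bp there and 2156.5 bp in the rest. This was not particular to the regions, since the median on chromosome 4 was 10090 bp. Short genes were reached about as often, at 29 of 58 genes under 2 kb in the regions (50%) and 48.7% in the rest, and from 2 to 10 kb it was 53 of 68 (77.9%, 66.7 to 86.2%) and 70.8%. Longer genes were reached less often, at 20 of 41 from 10 to 50 kb (48.8%, 34.3 to 63.5%) in the regions and 67.0% (64.4 to 69.6%) in the rest. From 50 kb on it was 4 of 14 (28.6%, 11.7 to 54.6%) in the regions and 139 of 233 (59.7%, 53.3 to 65.7%) in the rest. For the longest class the intervals overlapped slightly.

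Inside genes the contrast by length was steeper. A summit in overlapping genes was counted for each of them. Under 2 kb, genes had 64.5 summits per 100 kb of gene in the regions and 52.9 in the rest. From 2 to 10 kb these values were 50.5 and 46.8, from 10 to 50 kb 14.6 and 33.7, and from 50 kb on 2.24 and 20.1. Leaving out Myo81F, the longest gene, the last region value was 2.72. Thus in the regions, summits inside genes were as dense as elsewhere only in the 2 classes under 10 kb.

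**Figure D5:**
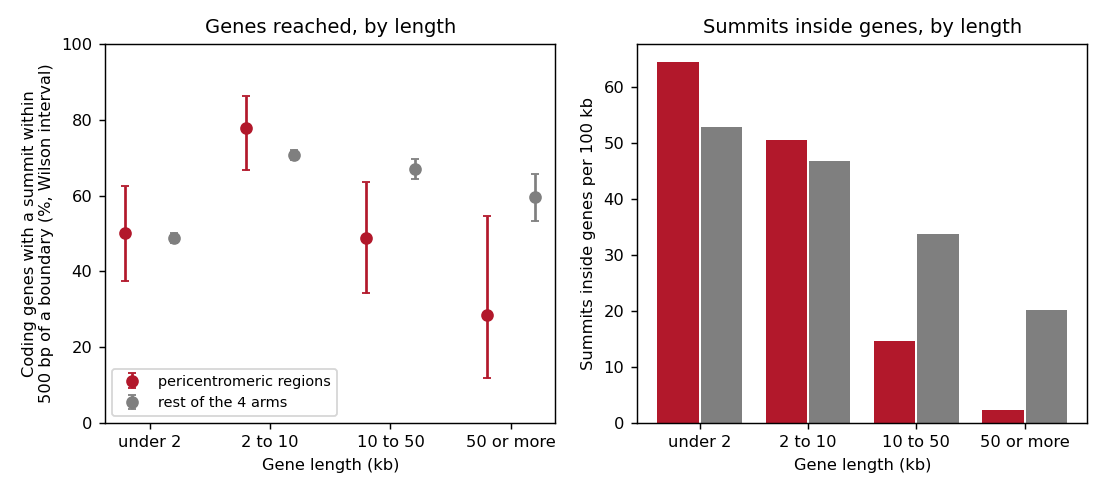
Percent of protein-coding genes that were reached, with 95% Wilson intervals (left), and summits inside genes per 100 kb of gene (right), by gene length in kb, for the pericentromeric regions (red) and the rest of the 4 arms (gray). Genes of the regions fall behind from 10 kb on, to 28.6% against 59.7% reached and 2.24 against 20.1 summits per 100 kb in the longest class.

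The 14 genes of 50 kb or more differed widely among themselves. Myo81F spans 1965857 bp of 3R and had 32 summits, or 1.63 per 100 kb. Pzl, with 709421 bp, had 0 summits, as did CG40470, with 146551 bp, and nvd, with 76790 bp. The gene lovit, which encodes a transporter of photoreceptor synaptic vesicles and spans 434041 bp of 3L, had 1 summit with a score of 152. CG42346, the longest protein-coding gene of the X region with 53143 bp, was at the other end with 22 summits, or 41.4 per 100 kb, the highest of them 97.9, followed by Marf1 of 2L with 11 in 60042 bp, or 18.3 per 100 kb. Neither CG42346 nor Marf1 was reached. The span of CG42346 overlaps that of fog, which had 15 summits inside, so summits in the shared stretch were counted for both genes.

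The 4 long genes that were reached had a wide range of scores. Dbp80, with 142844 bp, had its score of 536 near a boundary, while the highest of 14 summits inside was 58.4. In l(3)80Fg, with 215672 bp, the score near a boundary was 150 and 6 summits lay inside. Parp1, with 125704 bp, had 57.0. AGO3, an Argonaute protein of the piRNA pathway that silences transposons, had 20.5 near a boundary and 198 at its single inside summit, in 135048 bp.

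Among noncoding genes, 16 of 50 lncRNA genes of the regions were reached (32.0%, 20.8 to 45.8%), and the background share in the rest was 23.8% (380 of 1594). Pseudogenes were reached in 2 of 23 cases in the regions (8.70%, 2.42 to 26.8%) and 50 of 171 in the rest (29.2%, 22.9 to 36.5%). Antisense RNA genes were reached in 7 of 11 cases in the regions and 203 of 383 in the rest. Of 14 rRNA pseudogenes in the regions 1 was reached, 28SrRNA-Psi:CR45859 on X. The miRNA genes mir-2491, mir-9388, and mir-4942 were reached, 3 of 8 in the regions, against 42 of 195 in the rest. With so few noncoding genes in the regions, the lncRNA interval includes the value of the rest.

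Of the 12 summits of the regions with a score of 1000 or more, 9 lay more than 10 kb from any gene boundary, and 9 lay inside an annotated gene. They made up 1.50% (0.859 to 2.60%) of the region summits and came from 7 peaks, whereas the 44 such summits of the rest made up 0.146% (0.109 to 0.196%) and came from 34 peaks, with 7 of them more than 10 kb from a boundary and 29 inside a gene. On chromosome 4 there were 3 such summits, 0.775% of the 387 there, and the interval (0.264 to 2.25%) overlapped that of the regions. None of the 12 was on 2L, 2 were on 3L, 7 on 3R, and 3 on X. The highest was at 22433143 of X, with 62828, which ranked 3 in the whole list. It was a peak with 1 summit, 11084 bp from CG14621, and was also the first summit inside the X border. The next of X was at 23217131, with 6801, inside 28SrRNA-Psi:CR45859, and a further one at 23222423 had 1141.

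On 3R all 7 lay inside Myo81F, and 6 of them were in a single peak. This peak had 16 summits between 2085357 and 2089079, more than any other peak of the regions, whose scores spanned 395 to 17754 (median 741). Its highest was at 2088484, which is 68432 bp from the nearest gene boundary. The remaining one stood alone at 1909092 with 10925. Scores in Myo81F were therefore carried by 2 places in a gene of 1965857 bp.

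On 3L, the summit at 25134051 had 2161 and lay 7880 bp from UQCR-11, a gene for a subunit of respiratory complex III, and that at 25903286 had 1379 and lay inside l(3)80Fg, 104845 bp from its nearer boundary. On 2L the second highest summit, at 23512862 with 626, was 96709 bp from the nearest gene, the pseudogene CR41519, and the third, at 22574518 with 530, was 4554 bp from Slmap. By contrast, the highest of 2L and the third of 3L were those of RpL5 and RpL15. Whether the isolated summits lie in repeated sequence was not tested.

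The summits beside the borders showed no common step. Going inward, the first summit was at 22037808 of 2L with a score of 19.8, at 22901550 of 3L with 11.8, at 4485108 of 3R with 132, and at 22433143 of X with 62828. The nearest ones on the outer side had 1.96, 317, 8.24, and 28.4. The first whole genes inside were CG31693 of 2L, which had no summit, BoYb of 3L, a piRNA pathway gene with 66.4, Fip1 of 3R, a polyadenylation factor gene with 132, and CG14621 of X with 16.7. The nearest genes outside were CG2528, slif, CG34425, and CG41562, none of which was reached. Of these, slif had 7 summits inside and CG2528 had 1, while CG34425 and CG41562 had 0. The borders are round coordinates, so members on either side differ by position only.

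Chromosome 4, a small chromosome known for its mixture of heterochromatin and active genes, was set beside the regions. It had 387 summits. Density was 65.0 summits per Mb in the pericentromeric regions and 293 per Mb on chromosome 4, and protein-coding genes numbered 14.7 and 60.7 per Mb. The share of summits inside a gene was 55.7% in the regions and 58.9% (53.9 to 63.7%) on chromosome 4, both below the 78.7% of the rest of the arms. The share near a gene boundary was 28.5% and 33.6% (29.1 to 38.4%). The median score near a boundary was 66.9 in the regions and 140 on chromosome 4, and away from boundaries it was 13.1 and 18.5. Of protein-coding genes, 58.6% in the regions and 56 of 80 on chromosome 4 (70.0%, 59.2 to 78.9%) were reached, with median best scores of 164 and 229 (190 to 294).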

How the data were processed

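ATAC-seq was done on 10 libraries of S2 cells. The authors deposited 1 list of summits of 1 bp, called on all libraries together, with a score that is −log10 of the q value; the lowest score is 1.30, just above −log10 of 0.05. Tools in the submitters' processing notes were Bowtie2 (2.3.5.1), MACS2 (2.1.0.20150731), DESeq2 (1.26.0), and deepTools (3.1.3), with the dm6 build. Read filters and Tn5 shifting: not given in the sources used here. Columns without a sample numbered 0.

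Genes came from a RefSeq table of the same assembly (Release 6), without strand, exons, or sequence, so start sites and promoter motifs were not used. The 3 genes across a border (lncRNA:CR44916, CG11131, and CG34357) were left out. Region lengths ran from the border to the last summit or gene end, and assembly gaps and repeats were not subtracted. Shares have Wilson intervals, ratios exact binomial intervals, and medians binomial order-statistic intervals, all at 95%. The interval of a difference of shares or medians is the region's interval minus the value of the rest, without the error of the rest. The scripts were tested on simulated data.

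Members and lists were chosen with earlier results of these data known. Genes named were the listed classical genes, the 3 with the highest scores and the 2 longest per region, the 2 longest not reached, those at the 3 highest summits, and those beside the borders; others were named as neighbors or examples after their values were seen. Alternatives were weak summits dropped (below the median score), 1 summit per peak (the strongest), borders moved 0.5 Mb, each arm left out, distances of 250 and 1000 bp, other gene sets, and gene bodies. Tables were handled with pandas 2.3.3 and numpy 2.4.6 in Python 3.11.15, intervals came from scipy 1.17.1, and plots from matplotlib 3.10.9.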

Additional observations from a re-analysis of the deposited data

How the results depend on the processing

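Of 40 alternative values, 31 moved by less than the interval of the value in the report and 9 moved by more. The density ratio of 0.204 was 0.240 with the strongest summit of each peak, 0.144 with borders moved 0.5 Mb towards the centromere, 0.171 without 2L, 0.256 without 3L, 0.249 without 3R, and 0.172 without X, all below 1. The difference of median scores was −9.83 (−14.9 to 2.23) with the strongest summit of each peak and 24.1 (4.56 to 37.5) with summits at or above the list median. With borders moved (−7.99 to −0.18) and without 3R (−6.49 to −0.61) the intervals lay below 0, unlike that in the report. These intervals leave out the error of the rest's median, so whether the differences exclude 0 is not settled. Without 3L the value was −0.58 (−4.27 to 4.40). The difference in the share of summits near a boundary was −20.3 points with borders moved. The cause was not tested. The share of reached genes and the summits per peak stayed within their intervals under the alternatives run. Over all annotated genes, however, the interval of the difference in reached genes (−13.1 to −1.71 points) lay below 0, with the share of the rest held fixed.

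The list was pooled and has no depth per library. No paired analysis was possible because no value belongs to a single library. Counts from a start site, lengths to the chromosome end, and promoter motifs were not run, since they need strand or sequence. Intervals treat summits as independent, although summits of 1 peak are not, so they are too narrow.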

Other observations

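Of the 119 summits of the whole list with a score of 1000 or more, 12 were in the pericentromeric regions, 44 in the rest of the 4 arms, and 50 on sequences other than the assembled arms and chromosome 4. The last group had 353 summits in all.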
